A study of Mus musculus with 6 samples.

Results

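The cytosolic ribosomal protein genes were read in early T cell progenitors (ETPs) of the mouse fetal thymus that lack the E proteins E2A (Tcf3) and HEB (Tcf12), a pair of helix-loop-helix transcription factors, and in their wild-type counterparts. Members were the genes whose symbol begins with Rpl or Rps followed by a digit, together with Rpsa, Rplp0, Rplp1 and Rplp2, leaving out the S6 kinases and rows marked as pseudogenes. The rule found 86 of the 22609 rows of the authors' deposited table. Of these, 77 were canonical ribosomal proteins (46 of the large 60S subunit and 31 of the small 40S subunit). A further 7 were counted as paralogues or like genes (Rpl3l, Rpl10l, Rpl22l1, Rpl36al, Rpl39l, Rps27l and Rps4y2). The other 2, Rpl7l1 and Rps19bp1, were kept apart from both classes. Rpl7l1 is by its name a like gene of Rpl7, but it was listed here with rRNA processing and not among the 7. Rpl26 and Rpl10l were listed at 0 in both groups, so 84 members had a test. RefSeq lists Rps4y2 as a transcribed pseudogene of the Rps4 family.

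The knockout group (dKO) had the genotype E2Afl/flHEBfl/flIL7RCre, in which Cre under the Il7r gene deletes both floxed loci in lymphoid cells, and was sorted as CD4-CD8-Lin-CD44+CD25-ckit+ cells that also carried YFP. The control group was wild type, sorted with the same surface markers and, by its label, without a YFP gate or Cre. Both groups were C57BL/6 fetal thymus with 3 libraries each. The gestational age, the number of animals per library and whether the libraries came from separate animals were not given in the sources used here, so the authors' p-values reflect only how much these libraries vary, and that variation may be technical. The deposited table holds a mean normalised count per group and gene, not the values of single libraries, with the authors' fold change and adjusted p. A gene was called higher or lower at an adjusted p below 0.05, and log2 changes are dKO over control.

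Every cell needs nearly all of the ribosomal proteins in equal numbers, since each ribosome carries a single copy of most of them, and their mRNAs are among the most abundant of a dividing cell. Most of these mRNAs begin with a tract of pyrimidines at the cap (the TOP motif), through which the mTOR pathway and the protein Larp1 control their translation together. In the mouse thymus the family is known for Rpl22, whose loss blocks alpha-beta T cell development, and a few members outside the ribosome, such as Rpl5 and Rpl11, bind Mdm2 and so raise p53.

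The deletion was visible in both targeted genes. Tcf3 had a mean of 364 normalised counts in dKO and 8931 in control cells (adjusted p = 1.2e-292), and Tcf12 had 562 in dKO and 3845 in control cells (adjusted p = 1.49e-97), in the authors' deposited table. Normalised counts summed to 23381590 in dKO and 22090871 in control cells. Of the 8 ETP markers listed, 3 were higher and 4 lower in dKO, with sums of 72914 in dKO and 59160 in control cells. Myeloid markers summed to 2076 in dKO and 8683 in control cells (4 of 5 lower), and erythroid markers to 47.5 in dKO and 1076 in control cells, with Beta-s globin at 12.3 in dKO and 1032 in control cells and Hba-a1, Hba-a2, Hbb-b1 and Hbb-b2 at 0 in both groups. B cell markers summed to 1077 in dKO and 1245 in control cells with Pax5 at 0 in both, and thymic epithelial markers to 423 in dKO and 276 in control cells. The markers meant to be gated out summed to 8598 in dKO and 8532 in control cells, nearly all of it Il2ra mRNA. The part of these differences in the ribosomal protein results was not tested.

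Most ribosomal protein mRNAs had slightly lower means in dKO ETPs. Of the 76 canonical genes tested, 72 had a lower mean in dKO than in control cells, and the median log2 change was -0.19, which is 87.5% of the control level. Summed over all members, normalised counts were 1019200 in dKO and 1164590 in control cells, or 4.36% of all counts in dKO and 5.27% in control cells. In bulk RNA a smaller share of cells of one kind and less RNA per cell cannot be told apart.

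Few of these small differences passed the authors' test. Among the 84 members tested, 19 fell in dKO (18 canonical genes and Rps4y2), 1 rose and 64 did not pass. Over all 16241 genes tested, 29.0% were called, 13.8% as lower and 15.1% as higher. Among the 5231 genes whose mean was 1000 or more, the range in which 71 of the 76 canonical genes lie, 43.9% were called, 18.8% as lower and 25.1% as higher. The share of canonical genes called lower (23.7%) was thus not far from that background, while the share called higher (1.32%) was below it. Of the 59 canonical genes with a mean of at least 5000, 28.8% were called lower and 1.69% higher. Over all 868 genes of that abundance, 21.9% were called lower and 31.2% higher. The direction differed more than the count of calls did. Among genes with a mean of at least 1000, 47.4% were lower in dKO with a median of 0.02, against 67 of the 71 canonical genes with a median of -0.19. The spread of the canonical genes in that range was an SD of 0.119 over genes, against 0.691 over all genes of that abundance.

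**Figure D1:**
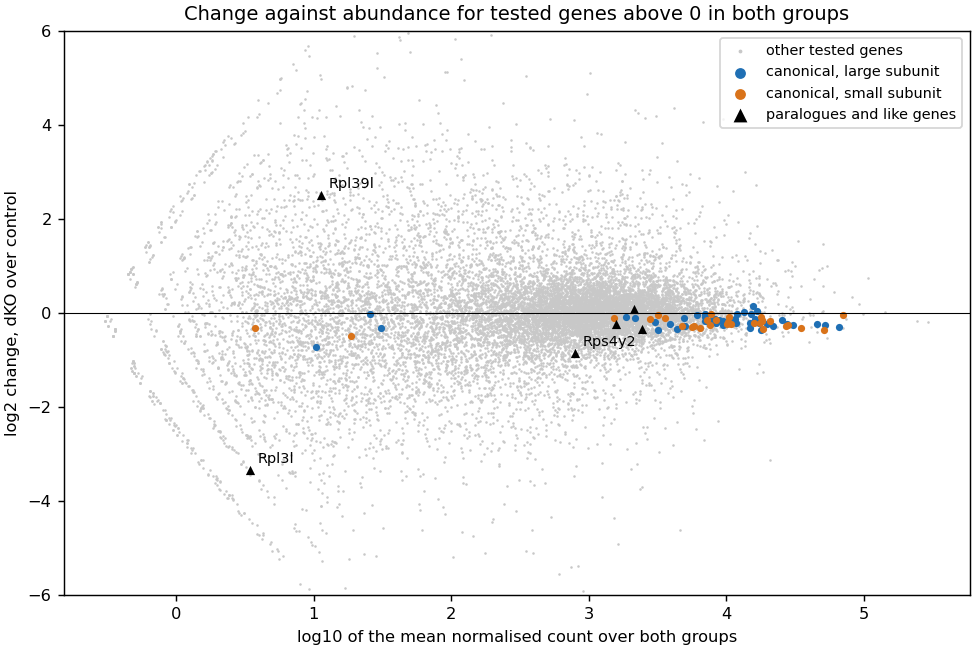
Log2 change (dKO over control) against the log10 of the mean normalised count for each tested gene above 0 in both groups, with the canonical members and paralogues that fell or did not pass coloured apart, leaving out 24 genes beyond 6 on the log2 axis. Canonical members with a mean of at least 1000 form a narrow band around a median of -0.19, while Rpl39l and Rpl3l stand apart at low means.

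The changes lay at the edge of what 3 libraries against 3 could call. Among genes outside the family with a mean of at least 2000, none of 248 with a change between 0.15 and 0.2 log2 in either direction was called, 5 of 216 (2.31%) between 0.2 and 0.25, 104 of 195 (53.3%) between 0.25 and 0.3, and 156 of 178 (87.6%) between 0.3 and 0.35. Of members above the same floor of 2000, 0 of 12, 4 of 16, 7 of 9 and 6 of 8 were called in those ranges. The 2 sets were not matched for abundance. At a mean of at least 1000, canonical genes had a median mean of 10058 in dKO and 11106 in control cells. Genes outside the family had 2229 in dKO and 2114 in control cells. The smallest change called among all genes of the table was that of Rpl7. A member that did not pass was not shown to differ from one that did.

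The large and the small subunit are given apart. Of 45 large-subunit genes tested, 11 fell and none rose by the authors' DESeq test (16 lower and 0 higher at an unadjusted p below 0.05), with a median of -0.19 and 42 below 0. Of 31 small-subunit genes, 7 fell and 1 rose, with a median of -0.21 and 30 below 0. Large-subunit genes held 2.45% of all counts in dKO and 2.97% in control cells, and small-subunit genes held 1.86% in dKO and 2.24% in control cells. The difference between the medians was not tested.

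**Figure D2:**
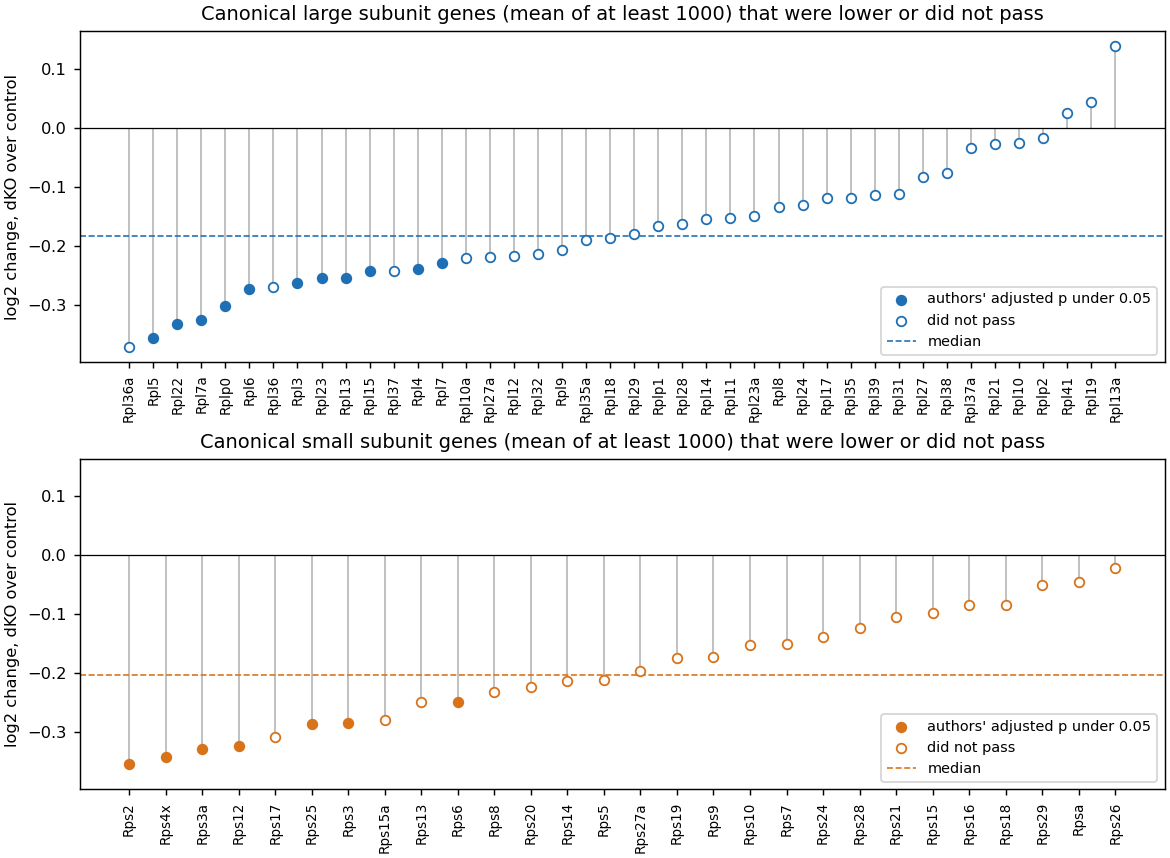
Log2 change (dKO over control) of the canonical genes with a mean of at least 1000 that fell or did not pass, by subunit and ordered by size, with filled points for genes called at an adjusted p below 0.05. All points but 3 lie below 0, and none of those 3 (Rpl13a, Rpl19 and Rpl41) passed.

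Most promoters of the family held a pyrimidine tract near the start, though a tract away from the cap is not a TOP motif. RefSeq's promoter table (mouse GRCm38.p6) held 57 of the 77 canonical genes. A C followed by at least 7 further C or T, on the transcribed strand from 50 bases before to 50 after the start, was found in 48 of the 57 (84.2%), against 32% of all 27025 genes of that table and 32.7% of those tested here. The 4 windows below run from 75 bases before to 25 after the annotated start and are shown because they hold the tract, in capitals, near the start of 3 genes that fell (Rps6, Rpl7a and Rpl22) and of Rpl13a, which did not pass. They lie at chr4:86857343-86857442 on the minus strand, chr2:26910732-26910831 on the plus strand, chr4:152325651-152325750 on the plus strand and chr7:45128721-45128820 on the minus strand.
Rps6: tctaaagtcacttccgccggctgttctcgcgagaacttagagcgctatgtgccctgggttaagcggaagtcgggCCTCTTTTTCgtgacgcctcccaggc
Rpl7a: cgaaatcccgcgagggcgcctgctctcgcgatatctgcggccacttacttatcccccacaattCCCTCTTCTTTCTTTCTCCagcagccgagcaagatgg
Rpl22: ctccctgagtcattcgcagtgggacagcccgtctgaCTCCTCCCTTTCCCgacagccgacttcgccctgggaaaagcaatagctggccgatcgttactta
Rpl13a: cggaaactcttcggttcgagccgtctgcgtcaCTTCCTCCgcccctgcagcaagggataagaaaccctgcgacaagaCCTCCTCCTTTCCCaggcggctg
In Rps6 and Rpl7a the tract spans the annotated start, in Rpl22 it ends before the start, and in Rpl13a the second of a pair begins just after it. Among canonical genes with a mean of at least 1000, called abundant here, the 44 with the tract had a median of -0.17 and 11 fell, and the 9 without it in that window had a median of -0.25 and 5 fell. In the 300-base promoters, read on both strands, the E-box CAGGTG, a form bound by E proteins, was found in 6 of the 57 (10.5%), against 22.6% of all genes of that table and 22.4% of those tested here. CAGCTG, another such form, was found in 2 (3.51%), against 18.3% of all and 18.6% of the tested genes. The E-box CACGTG, the form bound by Myc, was found in 6 (10.5%), against 8.09% of all and 11.1% of the tested genes. CCGGAAG, an Ets-type motif, was found in 24 (42.1%), against 9.93% of all and 16.8% of the tested genes. These matches describe the letters of the windows and not binding.

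In the 60S subunit, Rpl5, which with Rpl11 and 5S rRNA forms the particle that binds Mdm2, had a mean of 15849 in dKO and 20307 in control cells (log2 -0.36, adjusted p = 0.000987, the authors' deposited table). Its partner Rpl11 had 8415 in dKO and 9359 in control cells, which did not pass (log2 -0.15, adjusted p = 0.314, the authors' deposited table). Exon bases of Rpl5 overlap an antisense gene, Fam69a, over 46.6% of their length in the GENCODE annotation, and a count made without strand cannot tell the 2 apart. Rpl22, whose promoter is printed above, fell to 3863 in dKO, against 4869 in control cells (log2 -0.33, adjusted p = 0.00986, the authors' deposited table).

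The stalk, which recruits the elongation factors, is made of Rplp0 and the P1 and P2 proteins bound to it. Rplp0 fell to 59411 in dKO, against 73270 in control cells (log2 -0.30, adjusted p = 0.00453, the authors' deposited table). The means of its partners did not pass, with Rplp1 at 8883 in dKO and 9969 in control cells (adjusted p = 0.376) and Rplp2 at 6979 in dKO and 7065 in control cells (adjusted p = 1), in the authors' deposited table. The other large-subunit genes that fell were Rpl7a (log2 -0.33), Rpl6 (-0.27), Rpl3 (-0.26), Rpl13 (-0.25), Rpl23 (-0.25), Rpl15 (-0.24), Rpl4 (-0.24) and Rpl7 (-0.23). Of these, Rpl3, a protein near the peptidyl transferase centre, had the highest count, with 47486 in dKO and 56964 in control cells (adjusted p = 0.0157, the authors' deposited table). Rpl36a had a log2 change of -0.37 that did not pass, with 2779 in dKO and 3596 in control cells (adjusted p = 0.0707, the authors' deposited table). Rpl13a, whose promoter is printed above, had 16444 in dKO and 14940 in control cells and did not pass (log2 0.14, adjusted p = 0.274, the authors' deposited table). Another annotated gene overlaps 59.3% of the exon bases of Rpl13a on the same strand, so this count is uncertain. Rpl10, which completes the 60S subunit at its last step of maturation, had 15103 in dKO and 15368 in control cells (log2 -0.03, adjusted p = 0.976, the authors' deposited table).

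In the 40S subunit, Rps2 had 45315 in dKO and 57899 in control cells (log2 -0.35, adjusted p = 0.000722), and the X-linked Rps4x had 16358 in dKO and 20744 in control cells (log2 -0.34, adjusted p = 0.00157, the authors' deposited table). Rps3a (log2 -0.33), Rps12 (-0.32), Rps25 (-0.29) and Rps3 (-0.29), a protein of the mRNA entry channel, fell as well. Rps6, the substrate of the S6 kinases, fell to 25940 in dKO, against 30828 in control cells (log2 -0.25, adjusted p = 0.0282, the authors' deposited table). Rpsa, with the highest count of the small subunit, had 69805 in dKO and 72082 in control cells and did not pass (log2 -0.05, adjusted p = 0.841, the authors' deposited table). Rps19 had 17207 in dKO and 19427 in control cells (adjusted p = 0.321), and Rps27a, made as a fusion with ubiquitin, had 9671 in dKO and 11076 in control cells (adjusted p = 0.182), in the authors' deposited table. Rps19 and 8 other members whose human counterparts are mutated in Diamond-Blackfan anaemia, a list chosen after the values were seen, had a median of -0.15. All 9 had a lower mean in dKO, beside 72 of the 76 canonical genes tested, whose median was -0.19. Of the 9 listed, Rpl5 alone passed. The list does not hold all such genes, so that count covers these 9 only.

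Ribosomal proteins listed under other symbols moved in both directions. Gnb2l1 (RACK1), which sits at the head of the 40S subunit, fell to 23559 in dKO, against 28780 in control cells (log2 -0.29, adjusted p = 0.00803, the authors' deposited table). Fau, the ubiquitin-like fusion that yields the 40S protein eS30, rose to 7136 in dKO, against 5972 in control cells (log2 0.26, adjusted p = 0.0326, the authors' deposited table).

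Paralogues are set beside their partners here as ratios of counts, not scaled by length, so a ratio compares the groups and not the 2 genes. Rpl22l1, which Rpl22 is known to repress in the mouse, had 2160 in dKO and 2717 in control cells and did not pass (log2 -0.33, adjusted p = 0.10, the authors' deposited table). The log2 change of Rpl22l1 differed from that of Rpl22 by 0.0025, and the count of Rpl22l1 was 55.9% of that of Rpl22 in dKO and 55.8% in control cells. Rpl36al had 2221 in dKO and 2092 in control cells (log2 0.09, adjusted p = 0.734, the authors' deposited table), which was 79.9% of the count of Rpl36a in dKO and 58.2% in control cells. Neither member of that pair passed, and the difference between them had no test. Other genes overlap 63.1% of the exon bases of Rpl36al on its own strand and 28.8% of those of Rpl22l1 on the opposite strand, so both counts are uncertain. Rps4y2 had the largest change of the members that passed, with 569 in dKO and 1025 in control cells (log2 -0.85, adjusted p = 3.59e-06, the authors' deposited table), and its count was 3.48% of that of Rps4x in dKO and 4.94% in control cells. Rps27l, a p53 target in human cells, had 1452 in dKO and 1717 in control cells (log2 -0.24, adjusted p = 0.20, the authors' deposited table). The 2 genes kept apart from these classes did not pass. Rpl7l1 had 4588 in dKO and 5451 in control cells (log2 -0.25, adjusted p = 0.0542, the authors' deposited table), beside a log2 change of -0.23 for Rpl7, which fell. Rps19bp1 had 537 in dKO and 521 in control cells (adjusted p = 0.957, the authors' deposited table).

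For genes with a group mean of at most 100, the reads of single libraries could be worked out from the group means, since each mean is a sum of whole reads over the size factors. Libraries are named here by their size factor, which was 1.04, 1.08 and 1.16 in dKO and 0.823, 0.952 and 1.02 in control cells. Rpl39l, a relative of Rpl39 best known from male germ cells, had 11, 34 and 18 reads in the dKO libraries and 1, 2 and 7 in the control libraries in that order. All 3 dKO libraries lay above the 3 control libraries. The ratio of reads per size factor was 5.40 with a 95% exact interval of 2.75 to 11.8, which covers counting error only, and the gene did not pass the authors' test (adjusted p = 0.178, the authors' deposited table). Its log2 change was 2.51, and it was 1.95 without the dKO library of size factor 1.08 and 3.54 without the control library of size factor 1.02. Rpl39 itself had 2097 in dKO and 2270 in control cells (log2 -0.11), so Rpl39l was 0.919% of its count in dKO and 0.149% in control cells.

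Rpl3l, a form known from striated muscle, had 0, 2 and 0 reads in the dKO libraries and 7, 10 and 0 in the control libraries. The groups overlapped at 0, and the ratio was 0.101 with an interval of 0.0113 to 0.424 (adjusted p = 0.478, the authors' deposited table). Its log2 change was -3.35 with all libraries and -3.94 without the control library of size factor 1.02. Without the dKO library of size factor 1.08 no dKO read remained, and no change is given.

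**Figure D3:**
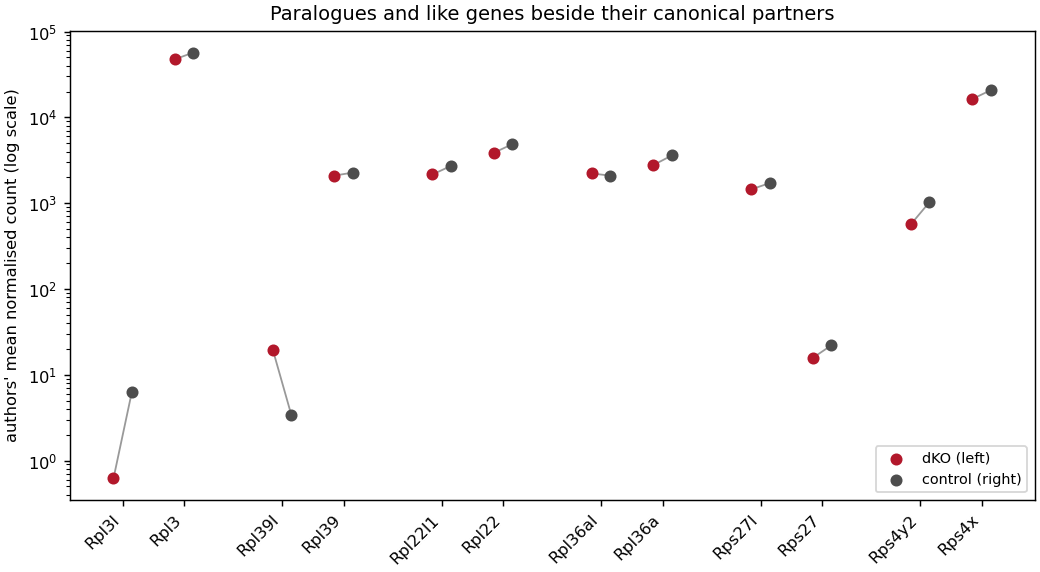
Mean normalised counts of paralogues and of their partners in dKO and control cells, on a log axis. Rpl22l1 lies at the same step below Rpl22 in both groups (55.9% of its count in dKO and 55.8% in control cells), and Rpl39l, which did not pass, has 19.3 in dKO and 3.38 in control cells.

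A few canonical genes were listed far below the rest although every cell needs their proteins. Rpl26 was at 0 in both groups. Rps23 had 3, 4 and 4 reads in the dKO libraries and 3, 2 and 7 in the control libraries, and its log2 change of -0.32 became 0.23 without the control library of size factor 1.02. Rpl30 had 5, 11 and 10 reads in dKO and 13, 12 and 11 in control libraries, and Rps27 had 22, 15 and 14 in dKO and 26, 16 and 18 in control libraries. Rpl34 had 21, 31 and 39 reads in dKO and 30, 38 and 28 in control libraries. Means of at least 1000 were found for 71 canonical genes. The 50-base words of the coding sequences of the 6 canonical genes below a mean of 100 were shared with other annotated genes or pseudogenes at 72.2% to 100%, but so were at least 50% of the words in 61 of the 71 abundant genes. How the authors counted reads that match several places was not given in the sources used here, so the levels of such genes are uncertain. The abundant genes that share at least 50% of their words and the 10 that share less had the same median change of -0.19.

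Per kilobase of coding sequence, the 71 abundant canonical genes had a median of 20664 normalised counts in dKO, with quartiles of 15711 and 30512, and of 22791 in control cells, with quartiles of 17917 and 34520. The lowest was Rps21, with 5973 per kilobase in dKO and 6420 in control cells. The highest was Rpl41, with 182678 in dKO and 179515 in control cells, whose coding sequence of 75 bases is short beside its untranslated ends, so that this scale overstates it. Rpsa had 78875 per kilobase in dKO and 81448 in control cells, and Rplp0 had 62472 in dKO and 77045 in control cells. From the lowest to the highest, the genes spanned 30.6-fold in dKO and 28-fold in control cells.

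Longer members had the lower medians. The 23 abundant genes with a coding sequence of 588 to 1257 bases had a median of -0.24 and 14 of them fell. The 24 of 408 to 582 bases had a median of -0.16, with 1 that fell and 1 that rose, and the 24 of 75 to 405 bases had a median of -0.15, with 3 that fell. The correlation of log2 change with log2 coding length over the 71 genes was r = -0.336 (rho = -0.321), as a description of genes that share the same libraries and are not independent. Over 4736 other genes of that abundance r was -0.045, and other genes in the 3 length ranges had medians of 0.05, 0.09 and 0.07 from the longest to the shortest. The long members were also the more abundant, with a median mean of 19935 in dKO and 24101 in control cells, against 4917 in dKO and 5862 in control cells for the shortest. Of the 71 genes, the 35 with a mean above the median of the set had a median change of -0.21, with 14 that fell and 1 that rose. The 36 at or below it had a median change of -0.16, with 4 that fell. The parts of length and abundance in these counts were not tested. The 28 abundant members with snoRNA genes inside them had a median of -0.23, against -0.17 for the 43 without. Those 28 were also the more abundant, with a median mean of 12601 in dKO and 13551 in control cells. The 43 without had 7963 in dKO and 9062 in control cells, and the part of abundance here was not tested.

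**Figure D4:**
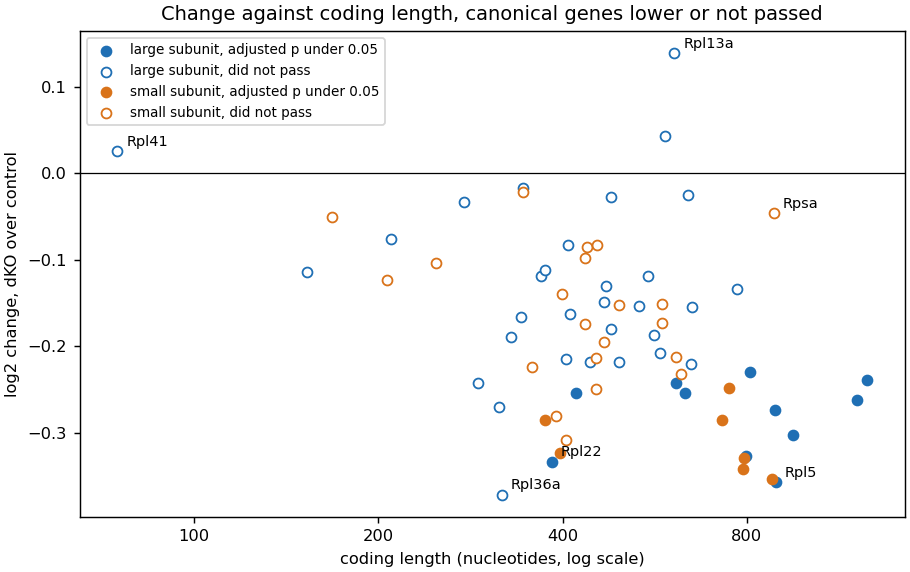
Log2 change (dKO over control) against coding length in bases for canonical genes with a mean of at least 1000 that fell or did not pass, with filled points for called genes. Genes of 588 to 1257 bases have a median of -0.24 and those of 75 to 405 bases one of -0.15, with wide overlap.

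The lists of factors that build ribosomes held many genes that fell, and the median over all genes tested was -0.02. The counts of every list below stand against 13.8% called lower and 15.1% called higher over all genes tested. At a mean of at least 1000 the shares were 18.8% lower and 25.1% higher. In either direction 29.0% of all genes tested were called, and 43.9% at that abundance. Of 70 genes tested for rRNA processing and modification, a list that includes Rpl7l1, 30 fell (42.9%), none rose by the authors' DESeq test (39 lower and 0 higher at an unadjusted p below 0.05) and 40 did not pass (median -0.25). Wdr12, a subunit of the PeBoW complex of 60S maturation, fell to 1981 in dKO, against 4161 in control cells (log2 -1.07, adjusted p = 5.72e-19), and Npm1, an abundant nucleolar protein, fell to 44188 in dKO, against 63703 in control cells (log2 -0.53, adjusted p = 6.05e-08, the authors' deposited table). Gnl3 (-0.78) and Rrp1b (-0.68) fell too, while Ddx21 (0.02) and Eif6 (-0.04) did not pass. Of 16 genes of RNA polymerase I and rDNA transcription, 7 fell (43.8%), none rose (8 lower and 0 higher at an unadjusted p below 0.05) and 9 did not pass (median -0.29). Polr1b, its second-largest subunit, fell to 1792 in dKO, against 2855 in control cells (log2 -0.67, adjusted p = 1.37e-06, the authors' deposited table), and Polr1a, its largest, fell as well (log2 -0.42). Ubtf, a factor that binds rDNA, did not pass (-0.14).

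Translation factors are given by the step at which they act. Of 10 elongation and release factors, 4 fell (Eef1g, Eif5a, Gspt1 and Eef1b2), none rose (5 lower and 0 higher at an unadjusted p below 0.05) and 6 did not pass (median -0.23). Eef1g, part of the exchange factor of eEF1A, fell to 16763 in dKO, against 24532 in control cells (log2 -0.55, adjusted p = 4.26e-08), while Eef1a1 itself had 231614 in dKO and 259165 in control cells (log2 -0.16, adjusted p = 0.165, the authors' deposited table). Of 35 initiation factors, 4 fell, 2 rose and 29 did not pass (median -0.07). Eif4b (-0.47), Pabpc1 (-0.40), Eif2b3 (-0.50) and Eif3b fell, and Eif3h (0.28) and Eif1 (0.26) rose. Eif4g2 (-0.05) and Eif4h (-0.10), both highly expressed, did not pass. Of 17 genes of the TOR pathway and of TOP mRNA control, 6 fell, 1 rose and 10 did not pass (median -0.14). As lower 35.3% of these were called and as higher 5.88%, against 18.8% and 25.1% among all genes with a mean of at least 1000. In either direction 41.2% were called, against 43.9% of those genes. Larp1, which binds TOP mRNAs, fell to 4951 in dKO, against 6037 in control cells (log2 -0.29, adjusted p = 0.0187), and so did the mTORC1 subunit Rptor (log2 -0.63) and the eIF4E inhibitor Eif4ebp1 (-0.77), in the authors' deposited table. Rps6ka1, an S6 kinase of the Erk pathway, rose (0.53), and Larp4 did not pass (0.09).

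Host genes of snoRNAs, several of which are TOP genes, included Gas5, which fell to 5397 in dKO, against 8998 in control cells (log2 -0.74, adjusted p = 5.09e-07, the authors' deposited table). Of 14 such genes 6 fell, 1 rose (Epb4.1l4a, log2 2.11) and 7 did not pass (median -0.57), Naca (-0.21) among them. The list of p53 target genes held 19 genes, counting Trp53 itself. Of these, 8 rose (42.1%, against 15.1% of all genes tested) and 2 fell (10.5%, against 13.8%), 9 did not pass, and the median was 0.44. Mdm2 rose to 3112 in dKO, against 1842 in control cells (log2 0.76, adjusted p = 7.63e-05), and Ccng1 rose as well (log2 0.96), while Sesn1 (-1.18) and Cdkn1a (-0.74) fell, in the authors' deposited table. Trp53 itself had 13552 in dKO and 15083 in control cells and did not pass (log2 -0.15).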

How the data were processed

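Per the labels' protocols, total RNA of the sorted cells was turned into cDNA with a SMARTer kit before Illumina sequencing. The submitters' processing notes name bcl2fastq 1.8.4, TopHat2 2.0.14, DESeq version 2 and the mm9 build. The read counter, its annotation and its use of strand were not given in the sources used here. The deposited table holds the authors' mean normalised counts per group (a signal: counts divided by DESeq size factors), the fold change as a linear ratio, and the p-value with its Benjamini-Hochberg adjustment. It gives no counts per library, so no new count test was made and every adjusted p is the authors'. A recomputed ratio differed from the deposited one by at most 1.12e-07.

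From the means, log2 changes, shares, medians and counts of calls were computed with Python 3.11.15, pandas 2.3.3, numpy 2.4.6 and scipy 1.17.1. Where a group had no reads, 3 reads over its libraries stood in as a floor for medians. Size factors and reads of single libraries were worked out for means of at most 100 and tested on simulated data. Estimated depth was 24272226 to 27028145 reads per dKO library and 18188837 to 22631692 per control library. Coding length, shared words and overlaps came from GENCODE M21 by symbol, with no coordinates carried to mm9, and promoters from RefSeq.

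Members and gene lists were chosen with earlier results of these data known. Genes were named where they were paralogues, were called, lay at the ends of the log2 or abundance order, or had a fixed role. In each list the rule takes up to 4 called genes by adjusted p and, of those that missed the threshold, the 3 with the highest means, and only some of these are printed. Eif1, Eif3b, Larp1, Cdkn1a and the E-box and Ets motifs were added after the values were seen. Mdm2 was likewise named outside the rule. Alternatives covered the threshold, filters, scaling, a pseudocount and left-out libraries. Some genes counted in the totals are not reported here by name.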

Additional observations from a re-analysis of the deposited data

How the results depend on the processing

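The count of members called lower in dKO was 19. It was 9 at a threshold of 0.01, 32 at an unadjusted p below 0.05 and 1 (Rps4y2) when a change of at least 1.5-fold was also asked for, each by construction of the stricter or looser rule. The count called higher was 1, and 0 both at 0.01 and at 1.5-fold (1 at an unadjusted p below 0.05). Members held 5.24% of counts in dKO and 6.29% in control cells when the 100 most abundant other genes were left out of the total, against 4.36% and 5.27% with them. Scaling both groups to equal totals shifted all changes by -0.08 log2 units, which gave a canonical median of -0.27. A pseudocount of 1 gave 2.21 for Rpl39l and -2.18 for Rpl3l. Single libraries could be left out only for the 7 members with recovered reads, so how far a single library decides the abundant members was not tested. No paired analysis was possible because the table holds group means only. Rare members such as Rpl3l rest on a few reads, and depth limits what can be read from them.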

Other observations

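The genes whose symbols begin with Rps6k, named as S6 kinases and left out of the ribosomal proteins, were looked at after their values were seen. A symbol does not show that each of them acts on Rps6. Of 10 such genes, 5 were higher in dKO, 1 was lower and 4 missed the threshold in the authors' deposited table, where 15.1% of all genes tested were called higher and 13.8% lower. Rps6ka3 had 1011 normalised counts in dKO and 395 in control cells (log2 1.36, adjusted p = 2.16e-13), and Rps6ka4 had 1044 in dKO and 399 in control cells (log2 1.39, adjusted p = 3e-14), in the authors' deposited table. Rps6ka6 (log2 1.52) and Rps6kl1 (2.89) rose too, as Rps6ka1 did, and Rps6kc1 fell (-1.29). Rps6kb1, the classical S6 kinase downstream of mTORC1, had 2692 in dKO and 3003 in control cells and did not pass (log2 -0.16, adjusted p = 0.388, the authors' deposited table).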
